A study of Mus musculus with 93 samples.

Results

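Atf4 and 9 genes of its amino acid response (Asns, Psat1, Phgdh, Chac1, Trib3, Ddit3, Ddit4, Slc7a11 and Slc7a5) were followed across heart field progenitors of mouse embryos and of stem cell spheroids. They were taken by symbol from the table of read counts, which held all 10 among its 24514 gene symbols. The list is one of symbols, drawn up with earlier results of these data known.

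ATF4 is the transcription factor at the centre of the integrated stress response. Kinases that sense amino acid shortage, endoplasmic reticulum stress, heme shortage or viral RNA phosphorylate the initiation factor eIF2alpha, which slows general translation while the Atf4 message, through its upstream reading frames, is translated more. ATF4 then binds composite C/EBP-ATF elements in genes for amino acid synthesis, transport and tRNA charging, together with regulators such as Ddit3, which encodes CHOP. Its activity is set largely by translation, so that Atf4 mRNA is not a measure of ATF4 protein.

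GFP+ cells expressed the Hcn4-GFP reporter, a mark of the first heart field, and RFP+ cells carried the Ai9 label left by Tbx1-Cre, which records past Tbx1 activity in the second heart field lineage. In vivo cells came from Hcn4GFP; Tbx1Cre; Ai9 embryos, dated E7.75 in the methods and E8.5 in the sample titles, and in vitro cells came from spheroids at day 5.5 grown from an embryonic stem cell line made from the same mice. All groups therefore shared the 3 alleles, were dissociated with TrypLE, and were sorted as 10 cells to a well, each well giving 1 RNA-seq library. There were 5 GFP+ and 4 RFP+ libraries in vivo and 38 GFP+ and 46 RFP+ libraries in vitro, and the sources do not tie wells to embryos or differentiations, so that n counts wells and a p-value measures the spread between wells.

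In vitro RFP+ wells of columns 3 and 4 in the same plate row were near copies in 7 rows, with r from 0.976 to 0.994 between libraries, and each such pair was summed and counted as 1 library. GFP+ well C9 held 6288 reads and was left out, which left 37 GFP+ and 39 RFP+ libraries in vitro, with 540597 to 7422768 reads each. In vivo libraries held 712732 to 2525460 reads. In vivo GFP+ libraries detected 6189 to 8302 genes each, against 10263 to 14671 in the other 3 groups. In vitro RFP+ wells lay in plate columns 1 to 6 and GFP+ wells in columns 7 to 11, so that an effect of population and one of plate column cannot be told apart. Levels below are in CPM, the reads of a gene scaled to a common library size by TMM. A gene was called at an adjusted p-value under 0.1 in edgeR's quasi-likelihood test across all genes that passed a filter on low counts, and errors of log2 fold changes are standard errors.

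The labelled cell types were checked against their markers. The summed level of 6 cardiac muscle genes ran from 12980 to 37050 CPM in the in vivo GFP+ libraries and from 616 to 1330 CPM in the in vivo RFP+ libraries, but from 0 to 575 CPM in vitro GFP+ and from 5.22 to 82.7 CPM in vitro RFP+ libraries. In vitro the median of this sum was lower in GFP+ (11.2 CPM) than in RFP+ libraries (32.2 CPM). Nkx2-5, Tbx5 and Myh6 had a median of 0 CPM in both in vitro populations. The summed level of 5 pluripotency genes was 35.2 to 1557 CPM in the in vitro GFP+ libraries (median 153) and 4.16 to 545 CPM in the in vitro RFP+ libraries (median 23.9). In vivo these genes summed to at most 0.424 CPM in GFP+ and 3.64 CPM in RFP+ libraries. Of 6 endoderm genes, 1 (Epcam, an epithelial gene) had a median above 0 in vitro GFP+ cells, at 118 CPM, while the median of Afp, Ttr, Apoa1, Sox17 and Foxa2 was 0. In vitro RFP+ cells had 3 above 0, Epcam (26.3 CPM), Foxa2 (7.81 CPM) and Sox17 (0.702 CPM). In vivo RFP+ cells had 4 above 0, with Epcam the highest at 41.4 CPM, and the sum reached 175 CPM in 1 library. In vivo GFP+ cells had none above 0. The summed median of 4 blood genes was 0 in each group, with 1 in vivo RFP+ library reaching 1150 CPM. The 5 endothelial genes summed to 78.1 to 88.0 CPM in the in vivo RFP+ libraries. The 6 genes of pharyngeal and second heart field mesoderm had a median sum in vivo of 166 CPM (GFP+) and 316 CPM (RFP+). The median sum in vitro was 88.8 and 108 CPM. Of these genes Isl1, which the paper regards as pan-cardiac, had the highest median in GFP+ cells of either source. Its GFP+ and RFP+ medians were 162.7 and 145.3 CPM in vivo, and 60.25 and 23.57 CPM in vitro. Those of Six2 in vitro were 0 and 35.45 CPM, and those of Fgf10 were 15.04 and 39.09 CPM. For Fgf8 they were 1.203 and 5.612 CPM, for Tbx1 0 and 2.079 CPM, and for Tcf21 2.619 and 2.331 CPM. The 4 neural genes reached at most 59.1 CPM in any library. The part of these markers in the results below was not tested.

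The start regions of the genes were searched for the letters of the C/EBP-ATF element. RefSeq promoter windows of the GRCm38.p6 build, from 250 bases before to 50 bases after the start site, held 9 of the 10 genes (not Slc7a5). The letters TTGCATCA, on either strand, occurred in 0.895% of all 32851 windows and in those of Chac1 and Slc7a11. With any base at N (TTNCATCA, which includes the first motif) they occurred in 3.97% of windows and in those of Asns, Chac1, Slc7a11 and Trib3. The cAMP element TGACGTCA occurred in 1.79% of windows and in none of the 9. The stretches with a match are shown on the strand of the gene, with the motif in capitals, because it is the element that ATF4 is known to bind and it occurred in a gene of each role: a regulator, a synthesis enzyme, a glutathione enzyme and a transporter.
Chac1 (chr2:119351029-119351076, plus strand): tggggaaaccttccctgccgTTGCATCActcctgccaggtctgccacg
Slc7a11 (chr3:50443633-50443699, minus strand): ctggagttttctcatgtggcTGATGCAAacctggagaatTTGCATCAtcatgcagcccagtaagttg
Asns (chr6:7693214-7693243, minus strand): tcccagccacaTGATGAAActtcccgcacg
Trib3 (chr2:152344028-152344057, minus strand): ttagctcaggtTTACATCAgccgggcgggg
The Chac1 match began 193 bases before the start site. Slc7a11 held a pair of matches facing opposite ways, which began 66 and 47 bases before the start. The Asns match began 23 bases before the RefSeq start and lay inside an exon of the GENCODE M21 annotation, and that of Trib3 began 14 bases after its start. A match is a run of letters and was not tested for binding. Of the other lists described below, TTNCATCA occurred in 5 of the 12 windows found for stress regulators (Atf3, Nupr1, Jdp2, Fgf21 and Vldlr), in 5 of 8 for tRNA synthetases of the ATF4 response (Aars, Gars, Iars, Tars and Yars), in 2 of 9 for serine, one-carbon and proline synthesis and in 1 of 5 for amino acid transporters. It occurred in 1 of 11 windows for the eIF2 machinery and in 1 of 13 for ER chaperones, and in none of those found for the other 6 lists.

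In vitro, Ddit3 and Trib3 were 11.1-fold and 9.16-fold higher in GFP+ than in RFP+ cells and Atf4 was 2.04-fold higher, the enzymes of amino acid synthesis were split in direction, and the 2 transporters were low in both. Of the 10 genes, 9 passed the filter and 7 were called, against 77.0% of all genes tested. Called higher in GFP+ cells were 6 genes (Ddit3, Trib3, Chac1, Atf4, Asns and Ddit4), against 39.1% of all genes, and called higher in RFP+ cells was 1 (Psat1), against 38%. The median log2 fold change of the 9 tested genes, RFP+ over GFP+, was -0.72, beside -0.0042 over all genes. Trib3, Chac1 and Ddit4 passed the filter through the GFP+ libraries alone, and Slc7a5 through the RFP+ libraries alone, so that for these the direction is not independent of the filter and the counts and the median are descriptions. Whether fewer cells with a transcript or less of it in each cell lay behind a lower level cannot be told apart in wells of 10 cells.

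**Figure D1:**
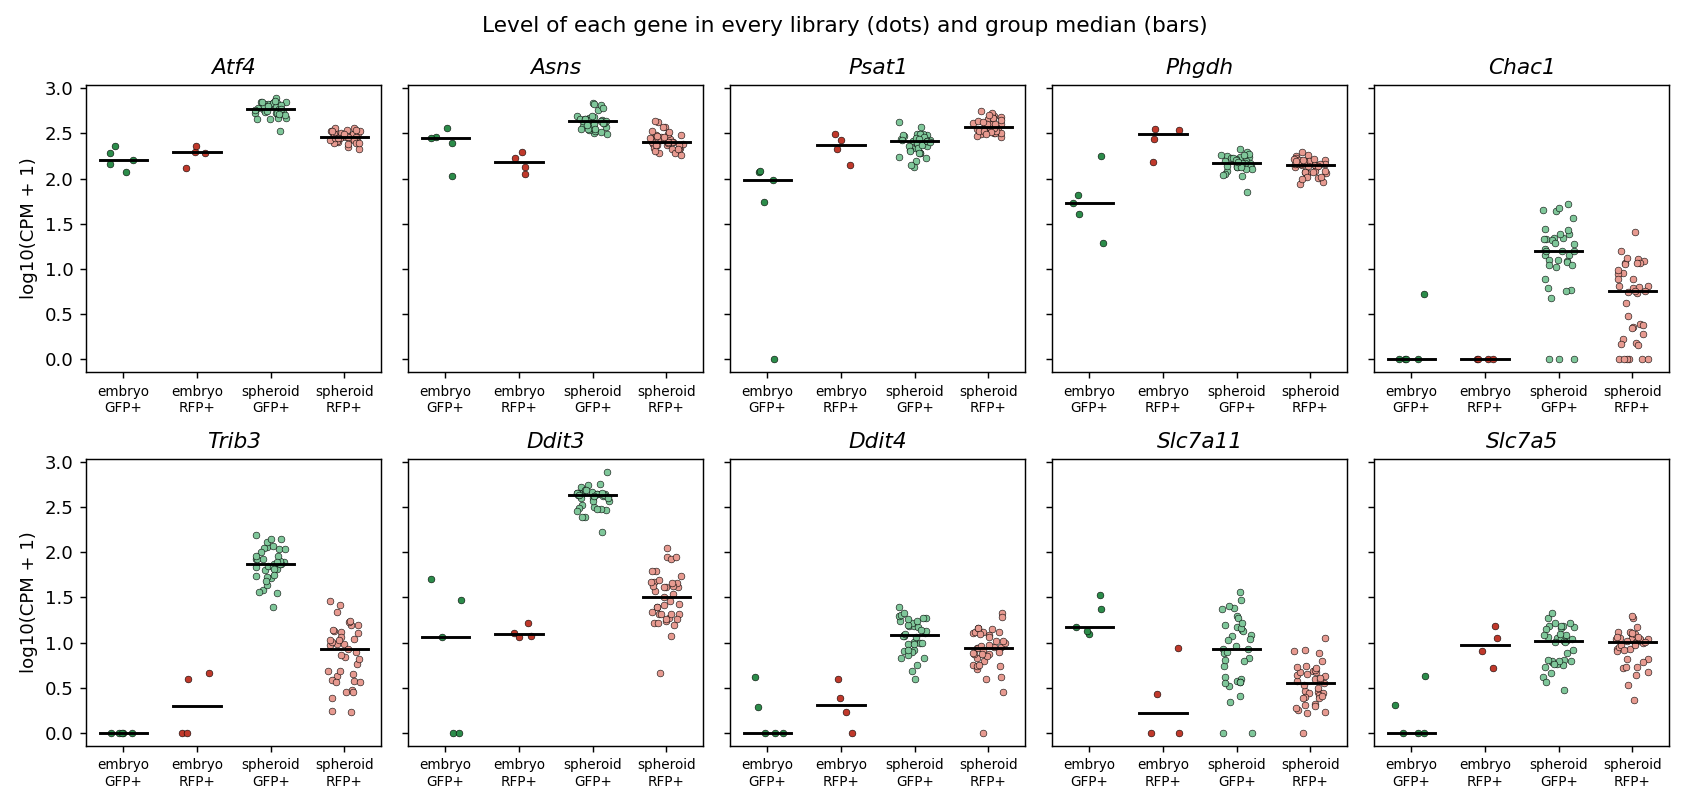
Level of each of the 10 genes, as log10(CPM + 1), in every library (dots) of the 4 groups, with the group median as a bar. Ddit3 in vitro does not overlap between GFP+ cells (167 to 779 CPM) and RFP+ cells (3.55 to 111 CPM), while Phgdh and Slc7a5 overlap almost fully there.

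Atf4 (chr15:80255184-80257541 of GRCm38, plus strand) was at 339 to 781 CPM in the in vitro GFP+ libraries (median 593) and at 213 to 363 CPM in the RFP+ libraries (median 289). Only 1 of the 37 GFP+ libraries lay within the RFP+ range. The log2 fold change was -1.03 ± 0.05 (adjusted p = 4.14e-34), a 2.04-fold higher level in GFP+ cells.

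Ddit3 (chr10:127290774-127296288, plus strand), the CHOP transcription factor that drives cell death programmes under prolonged stress, showed the largest change of the 10. It was at 167 to 779 CPM in GFP+ cells (median 425) and at 3.55 to 111 CPM in RFP+ cells (median 31.1). The ranges did not overlap, which held for 3.38% of all genes tested and for no other of the 9 genes. The level was 11.1-fold higher in GFP+ cells (log2 fold change -3.48 ± 0.15, adjusted p = 1.25e-37). In the GENCODE M21 annotation 2 gene IDs carry the symbol Ddit3 at this locus, and Ddit3 overlaps Mars, which lies on the other strand, and the counting is not stated to use strand. Mars itself was called higher in RFP+ cells, at a log2 fold change of 0.23 ± 0.08 (adjusted p = 0.00706).

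Trib3 (chr2:152337422-152344032, minus strand), a pseudokinase that is induced by ATF4 and CHOP and acts back on them, was at 23.7 to 155 CPM in GFP+ cells (median 73.6) and at 0.702 to 28.1 CPM in RFP+ cells (median 7.58). Of the GFP+ libraries, 36 of 37 lay above every RFP+ library. The fold was 9.16 (log2 fold change -3.20 ± 0.18, adjusted p = 2.18e-28).

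The enzymes did not move together. Asns (chr6:7675169-7693254, minus strand), which makes asparagine, was at 312 to 685 CPM in GFP+ cells (median 430) and at 184 to 435 CPM in RFP+ cells (median 252). The ranges overlapped, with 16 GFP+ libraries above every RFP+ library and 33 RFP+ libraries below every GFP+ library (log2 fold change -0.72 ± 0.07, adjusted p = 7.51e-17). Psat1 (chr19:15904678-15947337, minus strand), which catalyses the transamination step of serine synthesis, went the other way, at 134 to 427 CPM in GFP+ cells (median 257) and 287 to 554 CPM in RFP+ cells (median 375). Its log2 fold change was 0.63 ± 0.07 (adjusted p = 3.26e-14), and 28 of 37 GFP+ libraries lay below every RFP+ library. Phgdh (chr3:98313170-98339990, minus strand), the enzyme that opens the serine pathway, was at 70.0 to 209 CPM in GFP+ cells (median 148) and 86.7 to 196 CPM in RFP+ cells (median 140). It was not called (log2 fold change -0.10 ± 0.06, 95% interval -0.23 to 0.02, adjusted p = 0.123), but 3 of 7 alternative analyses called it higher in GFP+ cells, and the 7 values lay between -0.14 and -0.09.

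Chac1 (chr2:119351229-119354381, plus strand), which breaks down glutathione, was at 0 to 50.7 CPM in GFP+ cells (median 14.7) and at 0 to 24.3 CPM in RFP+ cells (median 4.66), with 3 and 6 libraries at 0. The groups overlapped widely, with 7 GFP+ libraries above every RFP+ library (log2 fold change -1.68 ± 0.32, adjusted p = 2.08e-06). Ddit4 (chr10:59949669-59951834, minus strand), an inhibitor of the growth kinase complex mTORC1 that hypoxia and glucocorticoids also induce, was at 2.89 to 23.5 CPM in GFP+ cells (median 10.99) and 0 to 20.0 CPM in RFP+ cells (median 7.79). Its log2 fold change was -0.51 ± 0.18 (adjusted p = 0.00697).

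Slc7a11 (chr3:49892526-50443614, minus strand), the light chain of the cystine and glutamate exchanger xCT, did not pass the filter in vitro. It was at 0 to 35.7 CPM in GFP+ cells (median 7.57) and 0 to 10.1 CPM in RFP+ cells (median 2.58), and 15 GFP+ libraries lay above every RFP+ library. A two-sided permutation test of the mean log2(CPM + 1) gave p = 1e-05, the smallest that 100000 resamples can give, and without the filter edgeR called the gene at a log2 fold change of -1.80 ± 0.28 (adjusted p = 2.54e-08). Slc7a5 (chr8:121881150-121907694, minus strand), the light chain of the leucine transporter LAT1, was at 1.94 to 20.0 CPM in GFP+ cells (median 9.32) and 1.33 to 18.5 CPM in RFP+ cells (median 9.21). It was not called (log2 fold change -0.07 ± 0.17, 95% interval -0.41 to 0.27, adjusted p = 0.718).

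**Figure D2:**
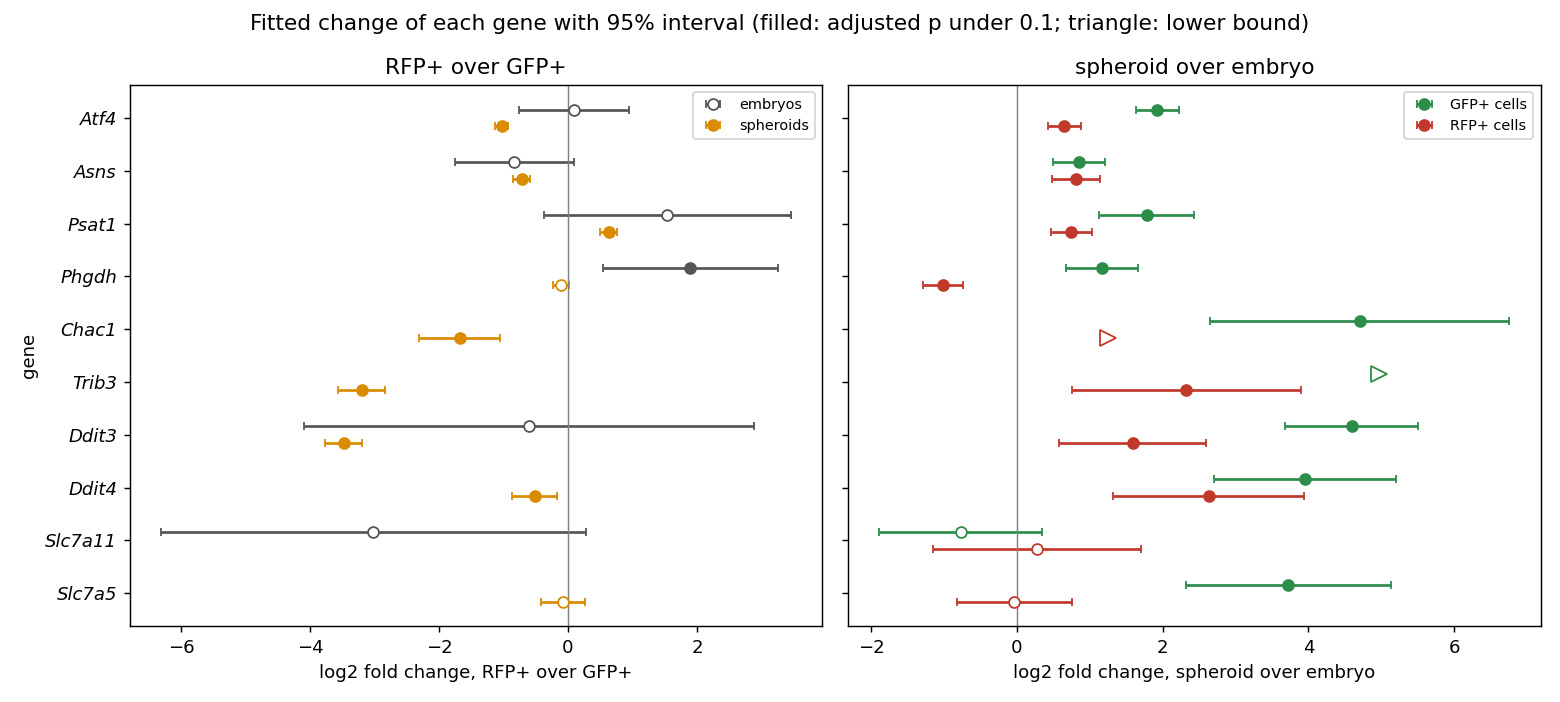
Log2 fold change of each gene with its 95% interval, RFP+ over GFP+ at left (embryos grey, spheroids orange) and spheroid over embryo at right (GFP+ cells green, RFP+ cells red). Filled circles passed an adjusted p of 0.1, open circles did not, a gene under the filter has no symbol, and a triangle is a lower bound where all embryo libraries were at 0. Ddit3 and Trib3 stand at -3.48 and -3.20 in spheroids, while Psat1 stands at 0.63.

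No plate column held both populations, and levels are given by column. The median of Ddit3 by plate column lay between 314 and 448 CPM over GFP+ columns 7 to 11 and between 19.6 and 42.6 CPM over RFP+ columns. For Trib3 the column medians lay between 63.9 and 104 CPM in GFP+ and between 2.65 and 10.1 CPM in RFP+ wells, and for Atf4 between 542 and 679 CPM in GFP+ and between 272 and 328 CPM in RFP+ wells. With plate row as a covariate the same number of the 10 genes, 7, was called.

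**Figure D3:**
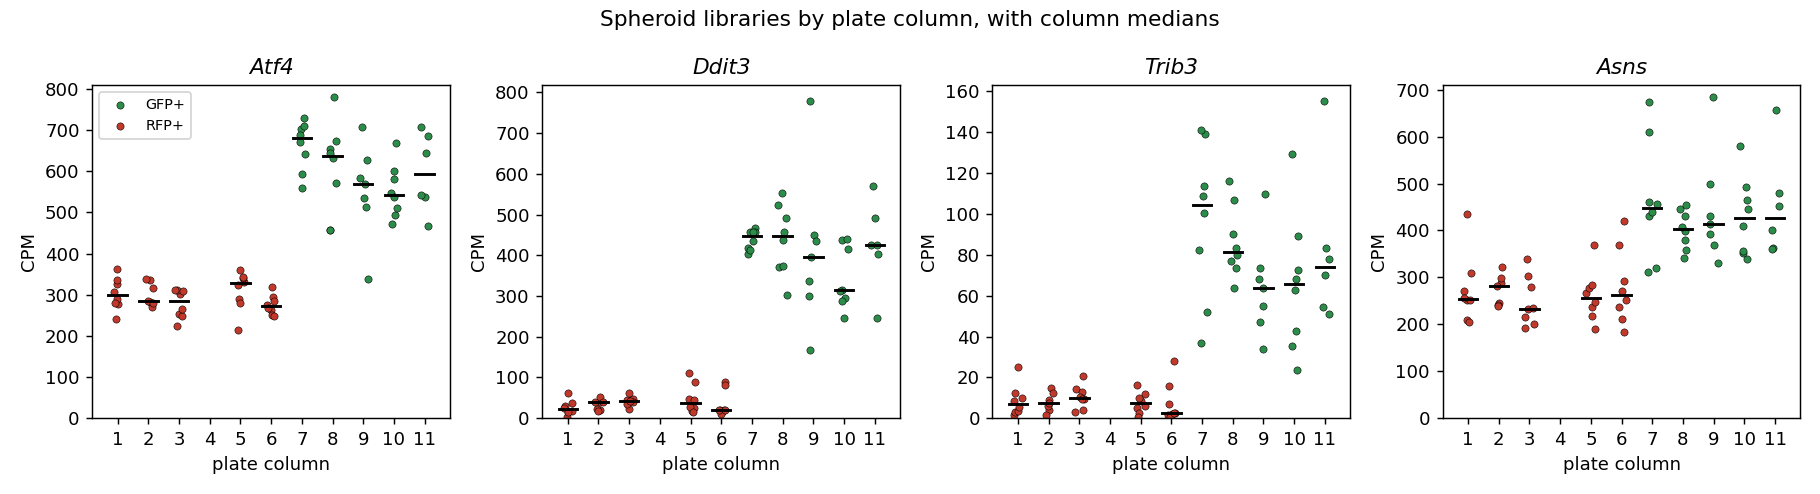
CPM of Atf4, Ddit3, Trib3 and Asns in each spheroid library by plate column, with column medians as bars. RFP+ wells (red) fill the lower columns and GFP+ wells (green) columns 7 to 11, and summed pairs of wells are drawn at column 3.

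Correlations between the genes differed in pattern between the in vitro populations, which was not tested. Pearson's r between log2(CPM + 1) of 2 genes had a median of 0.195 over the 45 pairs across the 37 GFP+ libraries and of 0.112 across the 39 RFP+ libraries. These correlations are descriptions over wells that may share a plate, a sort or a differentiation, none of which the labels name. The highest value in GFP+ cells was that of Atf4 with Ddit3 (r = 0.653, rho = 0.568), which was 0.479 without the 2 libraries farthest from the Atf4 median. Atf4 also moved with Ddit4 (r = 0.538, rho = 0.559) and Trib3 (r = 0.505, rho = 0.494), and Trib3 with Ddit3 (r = 0.539, rho = 0.537). Ddit4 was at r = 0.447 with Ddit3, 0.354 with Trib3, 0.474 with Chac1 and 0.409 with Slc7a5. Its r with the log2 of the reads per library was 0.389 in GFP+ cells. Among the enzymes r was 0.535 (rho = 0.463) for Asns with Phgdh and 0.479 (rho = 0.492) for Psat1 with Phgdh. For Asns with Psat1 it was 0.321 (rho = 0.336), and 0.152 without the 2 libraries farthest from the Asns median. Between the enzymes and Atf4, Ddit3, Ddit4 and Trib3, r ran from -0.279 (Ddit3 with Psat1) to 0.258 (Trib3 with Asns). It was 0.0127 for Ddit3 with Asns. In RFP+ cells the highest were Asns with Psat1 (r = 0.553, rho = 0.510) and Trib3 with Ddit3 (r = 0.449, rho = 0.468), whereas Atf4 with Ddit3 was at r = 0.286. The regulators were otherwise loosely related there, with r = 0.174 for Atf4 with Trib3, r = 0.0260 for Atf4 with Ddit4 and r = -0.0448 for Ddit3 with Ddit4.

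**Figure D4:**
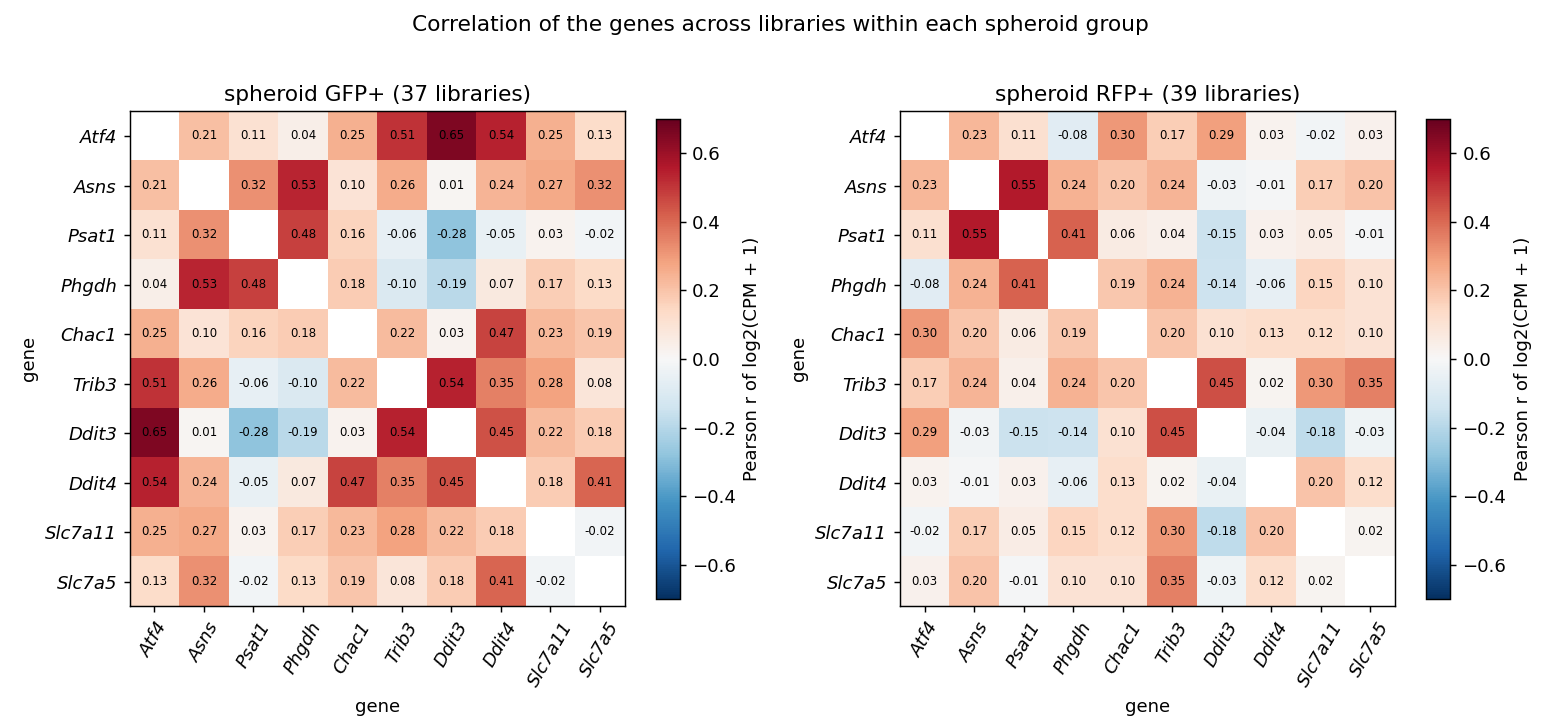
Pearson r of log2(CPM + 1) between each pair of the 10 genes, across spheroid GFP+ libraries (left) and RFP+ libraries (right), on a colour scale from -0.7 to 0.7. In GFP+ cells r among Atf4, Trib3, Ddit3 and Ddit4 ran from 0.354 (Trib3 with Ddit4) to 0.653 (Atf4 with Ddit3). Pairs outside these 4 reached 0.535 (Asns with Phgdh).

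Among the 9933 genes tested in vitro, those with the most similar pattern across libraries were ranked by Spearman's rho for each gene of the set. The highest of 9933 values is raised by selection, and the ranks were not tested. The first 5 are given for some of the genes only. Across GFP+ libraries the first 5 were Cdkn1a (0.631), Ifi30, Dhx40, Cystm1 and the serine tRNA synthetase gene Sars for Atf4. For Asns they were Hsp90ab1 (0.650), Psph, Chd1l, Gcat and Yars, of which Psph encodes the last enzyme of serine synthesis. For Trib3 they were Eif3c (0.644), Aars, Tmbim6, Ankrd27 and Gtpbp2, and for Phgdh they were Commd5 (0.660), C330006A16Rik, Clip3, Cth and Dcaf10. For Ddit3 they were Htatip2 (0.650), Prrg4, Dnttip2, Nub1 and Aprt in GFP+ cells and Capg (0.761), Cdkn1a, Sqstm1, Eps8l2 and Cpeb1 in RFP+ cells. Cdkn1a encodes the cell cycle inhibitor p21. The 2 groups gave no shared gene for Ddit3. For the other genes in GFP+ cells only the first is given here. It was Tial1 (0.640) for Psat1, 1600014C10Rik (0.586) for Chac1 and Cox6b2 (0.688) for Ddit4. For Slc7a11 it was Efcab2 (0.608), and for Slc7a5 it was Cdh1 (0.578). In RFP+ cells those for Atf4 were Gpkow (0.530), Apobec1, Pdpr, Rsph3a and Fat3, and the remaining RFP+ lists are not given. In GFP+ cells the log2 level of Ddit3 had r = 0.681 with the log2 of the summed level of 8 p53 targets (0.535 without the 2 farthest libraries). In RFP+ cells this r was 0.578. Its r with the summed stress regulators, Nrf2 genes and immediate early genes, listed below, was 0.631, 0.566 and -0.0098 in GFP+ cells. In RFP+ cells these were 0.330, 0.500 and -0.116. For the summed pluripotency genes, no gene of the set passed an r of 0.4 in either direction in GFP+ cells. In RFP+ cells Psat1 (r = 0.588) and Asns (r = 0.519) did. Without the 2 libraries farthest from the median of that sum these were 0.470 and 0.375, so that Asns no longer passed.

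Other genes of the response were counted in vitro in the same way. Of 13 stress regulators and secreted factors, 7 were tested and all 7 were called higher in GFP+ cells (median log2 fold change -2.24), of which 3 passed the filter through the GFP+ libraries alone. Atf3, a stress factor that pairs with CHOP and ATF4, was at 182 CPM in GFP+ and 17.3 CPM in RFP+ cells on average (log2 fold change -3.35 ± 0.22, adjusted p = 6.42e-25). Nupr1 changed by -2.92 ± 0.19 (adjusted p = 3.09e-25) and Ppp1r15a, which encodes the subunit that returns eIF2alpha to its unphosphorylated form, by -2.67 ± 0.14 (adjusted p = 1.37e-30). Of 7 other amino acid transporter genes, 6 were tested and 6 were called higher in GFP+ cells (median -0.70), led by the cationic amino acid transporters Slc7a3 (-2.07 ± 0.17) and Slc7a1 (-1.24 ± 0.15) and by Slc3a2 (-0.98 ± 0.06), the heavy chain that Slc7a5 and Slc7a11 need.

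The tRNA synthetase genes were divided. Of 12 that belong to the ATF4 response, 10 were called higher in GFP+ cells and 2 higher in RFP+ cells (median -0.28), with Sars at -1.35 ± 0.06, Aars at -0.98 ± 0.08 and Cars at -0.66 ± 0.08 against Lars at 0.33 ± 0.08 and Mars. Of 8 other cytosolic synthetases, 2 were called higher in GFP+ cells (Qars and Rars, at -0.11 and -0.10) and 6 higher in RFP+ cells (median 0.25), led by Vars at 0.89 ± 0.09. Of 11 further genes of serine, one-carbon and proline synthesis, 4 were called in each direction (median -0.03), and 1 passed the filter through the GFP+ libraries alone. Those higher in GFP+ cells were Psph and the enzymes Cbs (-2.65 ± 0.31), Aldh1l2 (-1.89 ± 0.29) and Cth (-1.10 ± 0.12), of which Cbs and Cth make cysteine from homocysteine. Those higher in RFP+ cells included Pycr1 (0.54 ± 0.14), Mthfd1l (0.53 ± 0.10) and Aldh18a1 (0.38 ± 0.09).

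The machinery upstream of ATF4 was called in both directions. Of 13 genes for eIF2alpha kinases, eIF2 and eIF2B, 2 were called higher in GFP+ cells, namely Eif2ak3, the kinase PERK (-0.61 ± 0.15), and Eif2s3x (-0.45 ± 0.06). Called higher in RFP+ cells were 6, among them Eif2ak4, the amino acid sensor GCN2 (0.48 ± 0.12), Eif2b2 and Eif2b4 (median of the list 0.19). Of 15 tested ER chaperones and other unfolded protein response genes, 3 were called higher in GFP+ cells and 8 higher in RFP+ cells (median 0.27), the latter led by Sdf2l1 (1.11 ± 0.16), Manf (0.66 ± 0.05) and Xbp1 (0.62 ± 0.08). Dnajb9 (-1.49 ± 0.11), Atf6 and Edem1 were the 3 higher in GFP+ cells. Of the 15, 1 passed the filter through the RFP+ libraries alone.

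Lists of other stress pathways were counted for comparison, beside the same shares of all genes. Of 8 tested Nrf2 and glutathione genes 7 were called higher in GFP+ cells (median -1.75), with the quinone reductase gene Nqo1 at -3.20 ± 0.29 and Hmox1 at -2.43 ± 0.16. Of 8 p53 targets 7 were called higher in GFP+ cells (median -2.85), and Bax was called higher in RFP+ cells. Of 6 tested immediate early genes 4 were called toward GFP+ and 2 toward RFP+ cells (median -1.90). Hypoxia genes were split, with 3 of 7 called toward GFP+ and 4 toward RFP+ cells (median 0.22), and so were 5 genes of mitochondrial chaperones and proteases, with 2 in each direction (median 0.02) and Hspa9 at -1.36 ± 0.05. The part of these pathways in the levels of the 10 genes was not tested.

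**Figure D5:**
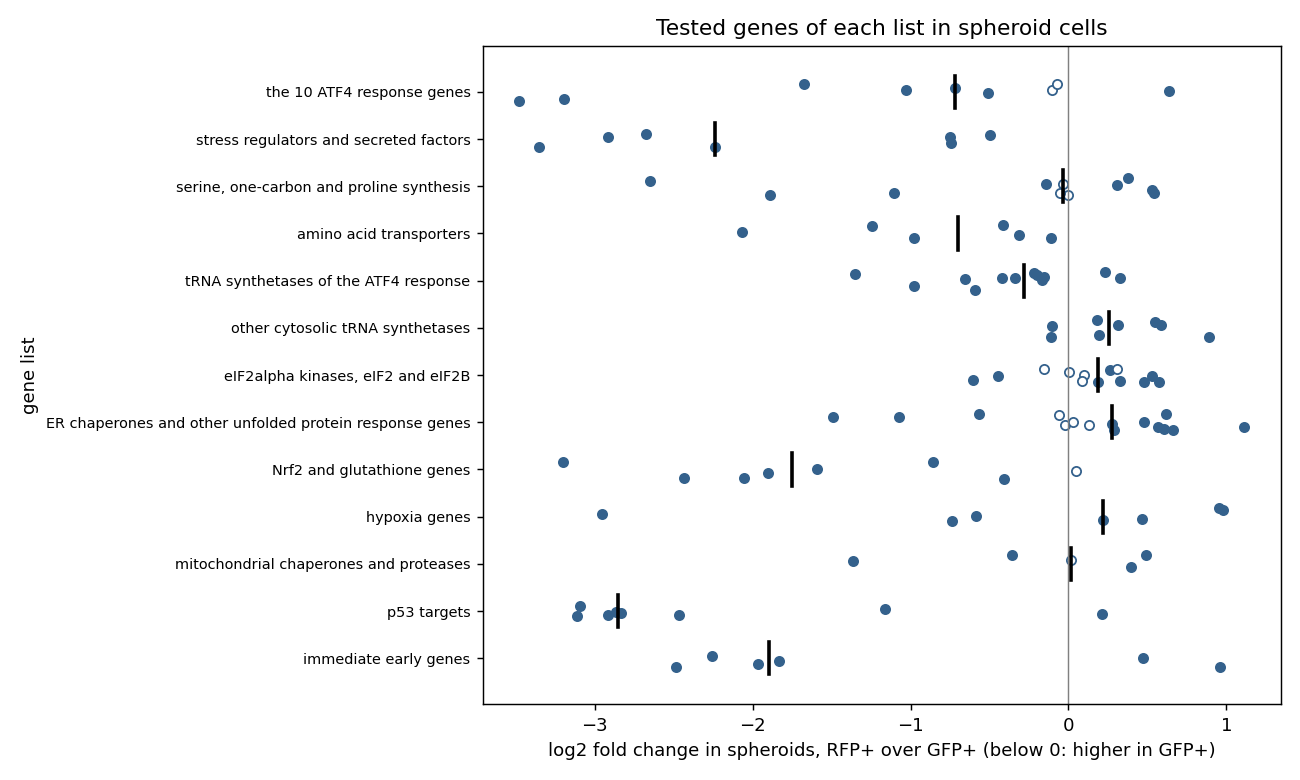
Log2 fold change, RFP+ over GFP+, of every tested gene of each list in spheroid cells, with list medians as black bars. Filled dots passed an adjusted p of 0.1, and the stress regulators all lie below 0, with a median of -2.24.

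In vivo, Phgdh was the 1 gene called between the populations, higher in RFP+ cells, among 6 of the 10 that passed the filter, against 10.1% of all genes called. The median log2 fold change of the 6 was -0.26, beside 0.09 over all genes. Ddit3 passed the filter through the RFP+ libraries alone and Slc7a11 through the GFP+ libraries alone, and Chac1, Trib3, Ddit4 and Slc7a5 were under it.

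Atf4 was at 189, 228, 160, 117 and 144 CPM in the 5 in vivo GFP+ libraries and at 197, 227, 131 and 190 CPM in the 4 RFP+ libraries. The groups overlapped, with a log2 fold change of 0.09 ± 0.39 (95% interval -0.76 to 0.94, adjusted p = 0.978). Ddit3 was at 0, 0, 28.9, 49.4 and 10.4 CPM in GFP+ libraries and at 10.9, 10.5, 11.8 and 15.6 CPM in RFP+ libraries, so that GFP+ libraries lay both below and above the narrow RFP+ range. Its log2 fold change was -0.61 ± 1.61 (adjusted p = 0.960, 95% interval -4.10 to 2.88), an interval that holds the in vitro value. Trib3 had no reads in any GFP+ library and was at 2.91, 0, 0 and 3.55 CPM in RFP+ libraries, from 9 reads in all (exact two-sided permutation test, p = 0.167). A mean count of 3 reads would have been 2.52 CPM in GFP+ libraries, above the RFP+ mean of 1.61 CPM, so that the direction between the populations was not detectable at this depth, although the joint fit of the 4 groups called Trib3 higher in RFP+ cells (4.69 ± 1.6, adjusted p = 0.0113, edgeR).

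Phgdh was at 18.2, 39.5, 65.1, 52.6 and 177 CPM in GFP+ libraries and at 343, 275, 354 and 150 CPM in RFP+ libraries. The groups overlapped through the GFP+ library at 177 CPM and the RFP+ library at 150 CPM. The log2 fold change was 1.90 ± 0.63 (adjusted p = 0.0965), and over 14 alternatives it ran from 1.65 to 2.60 (the latter without GFP+ replicate 5) and was called in 4. It was not called without GFP+ replicates 1, 2, 3 or 4 or any 1 of the RFP+ replicates. Psat1 was at 118, 95.1, 54.2, 121 and 0 CPM in GFP+ libraries and at 310, 210, 139 and 264 CPM in RFP+ libraries. These groups did not overlap, as for 17.5% of the genes tested, but the difference was not called (1.54 ± 0.89, 95% interval -0.38 to 3.45, adjusted p = 0.490). Asns was at 105, 292, 365, 244 and 283 CPM in GFP+ libraries and at 135, 167, 198 and 111 CPM in RFP+ libraries, with 4 of 5 GFP+ libraries above every RFP+ library. It was not called (-0.83 ± 0.43, adjusted p = 0.391), although it was without GFP+ replicate 1.

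Slc7a11 was at 13.9, 11.5, 32.5, 22.6 and 12.5 CPM in GFP+ libraries and at 0, 7.67, 1.69 and 0 CPM in RFP+ libraries. The groups did not overlap, as for 17.5% of the genes tested, and Slc7a11 passed the filter through the GFP+ libraries alone. The difference was not called (-3.02 ± 1.52, adjusted p = 0.380), whereas DESeq2 called it. Slc7a5 was at 3.21, 0, 0, 0 and 1.04 CPM in GFP+ libraries, from 4 reads, and at 10.2, 6.97, 4.22 and 14.2 CPM in RFP+ libraries. These groups did not overlap either. Slc7a5 lay under the filter, and an exact two-sided permutation test gave p = 0.0159, where 0.00794 is the smallest that 126 splits allow. Ddit4 had at most 4 reads in an embryo library (p = 0.571 by the exact test), and Chac1 had 4 reads in GFP+ replicate 1 and none in the other 8 libraries (p = 1).

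Whether the change between populations differed between spheroids and embryos was tested for the 5 genes that passed both filters. None was called, against 5.18% of all genes, where the 2 log2 fold changes were set against their own errors from edgeR. The difference, spheroid change minus embryo change, was -1.12 ± 0.40 for Atf4 (adjusted p = 0.280), -2.0 ± 0.63 for Phgdh (adjusted p = 0.200), -2.87 ± 1.62 for Ddit3 (adjusted p = 0.614), -0.90 ± 0.89 for Psat1 and 0.12 ± 0.43 for Asns. At an unadjusted p under 0.05 there were 2 genes, Atf4 and Phgdh. In a joint fit, which gives all 4 groups 1 spread although in vivo GFP+ libraries varied more, 6 of the 10 genes were called. The in vitro log2 fold change of Atf4, -1.03, lay outside its in vivo interval of -0.76 to 0.94. That of Phgdh, -0.105, also lay outside its in vivo interval, 0.55 to 3.25. For Ddit3, Psat1 and Asns the in vivo interval held the in vitro value. These intervals are not adjusted for the number of genes tested. An Atf4 contrast of the in vitro size was thus not seen in vivo. By the adjusted test, however, the contrast in vitro is not shown to be absent in vivo.

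The lists of related genes are read in vivo against the 10.1% called over all genes. None of 3 tested stress regulators (1 at an unadjusted p under 0.05, 1 called by DESeq2), of 4 amino acid transporters (1 and 0) or of 13 genes of the eIF2 machinery (0 and 0) was called by edgeR. Calls were made in 5 of 15 ER chaperones, 3 of 7 hypoxia genes and 2 of 5 mitochondrial chaperones and proteases. The 5 ER chaperones were all higher in GFP+ cells (Sel1l -2.23 ± 0.59, Pdia4 -1.58 ± 0.33 and Calr -1.36 ± 0.24 among them), whereas 8 genes of this list were called higher in RFP+ cells in vitro. Got1 (-2.77 ± 0.51) and Wars (-1.95 ± 0.59) were called higher in GFP+ cells. Hspe1 was called higher in RFP+ cells, and Hspd1, Nfe2l2 and 3 hypoxia genes were called higher in GFP+ cells. Of 8 other synthetases none was called (1 at an unadjusted p under 0.05, 1 by DESeq2), nor were any of 3 p53 targets (0 and 2) or of 3 immediate early genes (0 and 2).

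Between sources, Atf4, Ddit3 and Trib3 were higher in in vitro than in in vivo GFP+ cells with no overlap. All 10 genes passed the filter, 9 were called (not Slc7a11) against 68.4% of all genes, and the 9 were higher in spheroids, against 48.1% of all genes. None was called lower in spheroids, against 20.2%. These counts are a description, because 6 of the 10 genes (Psat1, Chac1, Trib3, Ddit3, Ddit4 and Slc7a5) passed the filter through the spheroid libraries alone, as did 9241 of the 11953 genes tested, and genes low in embryos were tested only if high in spheroids. The median log2 fold change over all genes was 0.65, and it was 0.47 with DESeq2 size factors and 0.55 with total counts, so that changes are also given relative to it. These comparisons use the same libraries as those between populations, and they are not independent of them.

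Atf4 rose from 168 ± 42.7 CPM (SD, n = 5) to 596 ± 95.3 CPM (SD, n = 37), with no overlap (log2 fold change 1.92 ± 0.15, adjusted p = 6.65e-16, or 1.27 above the median of all genes). Ddit3 rose from 17.8 ± 21.3 to 411 ± 108 CPM, also with no overlap (4.59 ± 0.45, adjusted p = 2.81e-12, and 5.70 without GFP+ replicate 4). Trib3 rose from 0 in all 5 libraries to 79.3 ± 31.9 CPM, at least 31.4-fold higher than 3 reads per embryo library would give. Without overlap were 4 of the 10 genes (Atf4, Psat1, Trib3 and Ddit3), against 15.9% of all genes.

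Psat1 rose by 1.78 ± 0.32 on the log2 scale. Phgdh and Asns rose by 1.17 ± 0.25 and 0.86 ± 0.18, which is 0.52 and 0.21 above the median of all genes, and Phgdh by 1.84 without GFP+ replicate 5. Chac1, Ddit4 and Slc7a5 were at 0 in 4, 3 and 3 of the 5 in vivo GFP+ libraries, with 4, 5 and 4 reads in all, and at medians of 14.7, 10.99 and 9.32 CPM in vitro. Their log2 fold changes were 4.70 ± 1.02 (adjusted p = 9.73e-05), 3.95 ± 0.62 (adjusted p = 3.68e-07) and 3.73 ± 0.70 (adjusted p = 1.11e-05), and rest on these few reads in libraries that detected fewer genes. Without the library that held most of the reads they became 8.06 for Chac1 and 5.27 for Slc7a5 (both without GFP+ replicate 1) and 5.08 for Ddit4 (without GFP+ replicate 5). Slc7a11 was at 18.6 ± 8.95 CPM in vivo and 10.1 ± 8.53 CPM in vitro and was not called (-0.77 ± 0.56, 95% interval -1.89 to 0.35).

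In RFP+ cells, Atf4, Asns, Psat1, Ddit3, Trib3, Ddit4 and Chac1 were called higher in spheroids. Of the 10 tested genes, 8 were called against 42.1% of all genes, 7 of them higher in spheroids against 22.3%, and 1, Phgdh, lower against 19.8%. Chac1, Trib3, Ddit4, Slc7a11 and Slc7a5 passed the filter through the spheroid libraries alone, so that these counts too are a description. The median log2 fold change over all genes was 0.05, and no gene of the set was without overlap, against 4.94% of all genes. Atf4 rose from 186 ± 40.1 CPM (SD, n = 4) to 293 ± 36.6 CPM (SD, n = 39), or by 0.65 ± 0.11 (adjusted p = 5.03e-06). Asns rose by 0.81 ± 0.16 (adjusted p = 9.08e-05) and Psat1 by 0.75 ± 0.14 (adjusted p = 3.75e-05).

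Ddit3 rose by 1.59 ± 0.50 (adjusted p = 0.0108) and Trib3 by 2.33 ± 0.78 (adjusted p = 0.0170), and Ddit4 by 2.63 ± 0.66 (adjusted p = 0.00131). Without RFP+ replicate 4 the value of Trib3 was 3.02, and without RFP+ replicate 1 that of Ddit4 was 3.38. Of the 39 in vitro libraries, 34 lay above every in vivo library for Ddit3 and 27 for Trib3. Chac1 had no reads in the 4 in vivo libraries and was at 5.30 ± 5.30 CPM in vitro, at least 2.37-fold higher. Phgdh fell from 280.5 ± 93.6 CPM to 138 ± 26 CPM (-1.02 ± 0.14, adjusted p = 3.16e-08), and 3 of 4 in vivo libraries lay above every in vitro library. Slc7a5 was at 8.89 ± 4.29 CPM in vivo and 8.73 ± 3.70 CPM in vitro (-0.03 ± 0.40, 95% interval -0.83 to 0.76), and Slc7a11 at 2.34 ± 3.64 and 2.93 ± 2.12 CPM (0.28 ± 0.71, 95% interval -1.15 to 1.71), neither of them called. In GFP+ cells the log2 fold change from embryo to spheroid was 4.59 for Ddit3 and 1.92 for Atf4, side by side with 1.59 and 0.65 in RFP+ cells. The difference between these changes is the contrast tested above, where neither gene was called.

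The lists that accompany these genes also differed between sources. Of all genes, 48.1% were called higher and 20.2% lower in spheroid GFP+ cells, and 22.3% higher and 19.8% lower in spheroid RFP+ cells. In GFP+ cells, 9 of the 10 tested stress regulators passed the filter through the spheroid libraries alone, so that their calls, all higher in spheroids, are close to fixed by it. Atf3 was at least 72.3-fold higher and Nupr1 at least 25.3-fold higher, both set against 3 reads per embryo library because the in vivo GFP+ libraries held no read of either. In RFP+ cells 2 of 7 were called, Nupr1 higher (4.28 ± 0.96) and Eif4ebp1 lower (-0.40 ± 0.13). Of these 7, 4 passed the filter through the spheroid libraries alone, and Nupr1 was at 0 in 3 of the 4 in vivo RFP+ libraries. The arginine transporter gene Slc7a3 was higher in spheroids in both. The change was 3.01 ± 0.56 in GFP+ cells, where 4 of 5 in vivo libraries were at 0. It was 3.58 ± 0.77 in RFP+ cells, where 2 of 4 were at 0. Of the tested transporters, 5 of 7 in GFP+ and 2 of 6 in RFP+ cells passed the filter through the spheroid libraries alone. A rise from near 0 is close to fixed by it. ER chaperones went the other way, with 12 of 16 called lower in spheroid GFP+ cells and 11 of 15 lower in spheroid RFP+ cells, among them Pdia4 (-3.82 ± 0.16 and -1.83 ± 0.15) and Calr (-2.88 ± 0.11 and -1.40 ± 0.10). Of the tRNA synthetases of the ATF4 response, 4 were called higher and 4 lower in GFP+ cells, and 1 higher and 3 lower in RFP+ cells.

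Levels were also compared between genes, as median CPM per kilobase of exon. In vivo GFP+ cells ranked Asns first (103 CPM per kilobase), then Atf4 (68.0), Psat1 (22.3), Phgdh (21.2), Ddit3 (6.09) and Slc7a11 (0.999), with the other 4 at a median of 0. In vivo RFP+ cells ranked Phgdh first (124), then Atf4 (82.1), Psat1 (55.7), Asns (55.2) and Ddit3 (6.63). In vitro GFP+ cells ranked Atf4 (251) and Ddit3 (248) first, then Asns (157), Psat1 (60.3), Phgdh (59.6) and Trib3 (34.6). In vitro RFP+ cells ranked Atf4 (123), Asns (92.3), Psat1 (88.2), Phgdh (56.4) and Ddit3 (18.2). Ddit3 was thus next to Atf4 in in vitro GFP+ cells, at levels that differed by less than the spread between libraries, and behind the 3 enzymes in the other groups. Exon lengths were those of GENCODE M21. Psat1, Slc7a11 and Slc7a5 overlap predicted genes there, and Ddit3 overlaps Mars and the predicted gene Gm4189. How the counting treated reads in an overlap is not stated in the sources used here.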

How the data were processed

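RNA-seq libraries of 10 sorted cells were used as 1 table of raw counts per gene symbol. Per the submitters' processing notes, the deposited counts were made with Trimmomatic 0.36, HISAT2 2.0.4 and featureCounts 1.5.2 of Subread on mm10 (GRCm38), and DESeq2 is also named. The strand setting is not given in the sources used here. Reads carry no molecular identifiers, so floors cover counting error only, and depth ran from 540597 to 7422768 reads per library used.

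Counts were analysed with edgeR 4.0.16 in R 4.3.3 (TMM, filterByExpr with minimum count 10, minimum total 15 and minimum proportion 0.7, quasi-likelihood F-test, Benjamini-Hochberg adjustment over all genes tested, threshold 0.1). Each of the 4 comparisons was fitted on its own 2 groups. Intervals are 95% intervals from the fit. Members under the filter were compared by two-sided permutation of the mean log2(CPM + 1), exact in vivo and with 100000 resamples in vitro, with p-values not adjusted. Floors are 3 reads per library. Gene coordinates and exon lengths come from GENCODE M21, and promoter windows from RefSeq. Scripts were tested on simulated data.

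The 10 genes and the 12 lists of related genes were chosen with earlier results of these data known. Text names all 10 genes and, per list and comparison, up to 3 called genes per direction with the largest change, with other genes named where a count was 5 or fewer, chosen after their values were seen. Sums of the 7 well pairs and removal of well C9 were set from library correlations and totals, not from these genes. Alternatives were DESeq2 1.42.0, DESeq2 size factors, total counts, no filter, all libraries as deposited, a joint fit, a stricter threshold of 0.05, plate row as covariate and leaving out each embryo library.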

Additional observations from a re-analysis of the deposited data

Results flagged for a closer look

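Chac1 was at 4.28 CPM in the in vivo GFP+ library of well A12 (replicate 1) and at 0 in the other 4, which set that library apart by the gap between it and the rest of its group. It rests on 4 reads. It was the only such value among the 20 in vivo groups of the 10 genes. With the rest of the group at 0, a few reads in 1 library are enough to set it apart.

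The in vitro GFP+ well C9, which was left out for its 6288 reads, held 4 reads of Atf4 and 7 reads of Asns, above the limit of 3 reads that a count of 0 allows.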

How the results depend on the processing

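In vitro between populations, the 7 called genes kept their direction and their call under all 7 alternatives, and so did the 9 and 8 genes called between sources in GFP+ and RFP+ cells under their 11 and 10. In vivo the single call was not stable: leaving out 1 embryo library gave 0 to 1 calls (without GFP+ replicate 1 it was Asns), DESeq2 size factors and a threshold of 0.05 gave 0, DESeq2 gave 2 (Slc7a11 and Slc7a5) and the joint fit of the 4 groups gave 6. The joint fit also called 6 genes, not 0, for the difference between sources. Over all genes, in vivo calls rose from 858 to 1936 with DESeq2, 2000 without the filter and 6980 in the joint fit, and in vitro calls from 7651 to 12775 without the filter. The cause was not tested.

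Among the 10 genes, the values that changed sign were those of genes not called. Atf4 in vivo became -0.0459 with DESeq2, -0.0473 with its size factors, -0.036 without GFP+ replicate 4 and -0.00359 without RFP+ replicate 2, in a range of -0.036 to 0.247 over left-out libraries, and Ddit3 became 0.171 without GFP+ replicate 4, in a range of -0.932 to 0.171. Between sources in RFP+ cells, Slc7a11 became -0.129 and -0.136 without RFP+ replicates 1 and 4, and Slc7a5 became 0.0073 with total counts and 0.034 and 0.279 without those replicates, in a range of -0.264 to 0.279. Slc7a11 was called there, at 2.31, without RFP+ replicate 2. The transporter gene Slc6a9, called lower in spheroid GFP+ cells from the reads of 1 embryo library, became 5.92 without GFP+ replicate 1, against -1.78 to -1.74 without any other. No paired analysis was possible because the labels share no replicate numbers between groups. In vivo GFP+ libraries limit what low genes can show.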
